A study of Mus musculus with 3 samples.

Results

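Dntt, Itm2a, Tox and Sox4 are 4 of the 14355 genes in a single-cell table of mouse naive CD4 T cells, and they were taken by name as genes known from developing thymocytes and from T cells that have recently left the thymus. The questions were how often each was found in the plates and CD5 classes of the study, and whether the 4 marked the same cells. C57BL/6 mice of 8 to 12 weeks, males and females pooled, gave the spleen and lymph node cells. They were sorted as live single TCRb+ CD4+ CD8- CD25- CD44- CD5+ cells, with a further gate for naive cells, over the whole range of surface CD5, and each of the 3 samples is a 384-well plate. SORT-seq places 1 sorted cell in each well and counts transcripts at their 3′ ends by unique molecular identifiers (UMIs), so a count does not grow with transcript length. The table holds 697 cells, which the authors divided by CD5 fluorescence into 174 Low, 349 Middle and 174 High cells (Low at or below 26610 units, High at or above 69889). The labels give no drug and no mutation for any group, and they do not say whether the plates came from separate animals, so spread between plates may be technical.

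A T cell that leaves the thymus is not yet fully mature, and for some days it keeps part of the transcript set of the thymocyte it came from. Dntt encodes terminal deoxynucleotidyl transferase (TdT), the DNA polymerase that adds untemplated nucleotides where antigen receptor gene segments are joined, a step that takes place in thymocytes and not in peripheral T cells. Itm2a encodes a type II membrane protein of the BRICHOS family that is switched on in thymocytes during positive selection. Tox is an HMG-box nuclear protein required for the development of CD4 T cells in the mouse thymus. Sox4 is a transcription factor of the SRY-related HMG-box family that is expressed in early lymphocytes. Surface CD5 dampens signals of the T cell receptor, and its amount on naive cells, adjusted during thymic selection, follows how strongly the receptor recognises self-ligands.

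On GRCm38 (mm10), GENCODE M21 places Dntt on chromosome 19 at 41029275 to 41059525 (plus strand), Itm2a on chromosome X at 107397099 to 107403376 (minus strand), Tox on chromosome 4 at 6686353 to 6991557 (minus strand) and Sox4 on chromosome 13 at 28948919 to 28953713 (minus strand). The longest annotated transcript has 12 exons for Dntt, 6 for Itm2a and 9 for Tox, and Sox4 has 1 exon. Tox and Sox4 each overlap a gene on the other strand, Gm11802 and Gm26735, and neither of these has a row in the table used here. The chromosomes in the table's row names are the same for all 4.

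Most cells carried the lineage markers of their sort. At least 1 Cd4 UMI was found in 95.7% of the cells and a Cd3e UMI in 80.6%. Transcripts of proteins that the sort gated against were also found. Cd8a was found in 7 cells, Cd8b1 in 29 (4.16%), Cd44 in 66 (9.47%) and Il2ra, which encodes CD25, in 13 (1.87%). The plates held 172, 201 and 324 cells, with medians of 3749, 5449 and 3952 gene UMIs a cell in plates 1, 2 and 3. All wells use the same set of cell barcodes, and 285 well positions were filled in more than 1 plate. In plate 2 the Cd5 transcript followed CD5 fluorescence only weakly (Spearman's rho 0.08 over 201 cells, against 0.39 in plate 1 and 0.26 in plate 3), so the High minus Low shares are also given without plate 2 and with each plate 2 cell given the CD5 value of the next well. Foxp3, which defines regulatory T cells, had a UMI in 56 cells, and plates 1, 2 and 3 held 0, 8 and 48 of them.

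The 4 genes fell into a pair found in many cells and a pair found in few. Itm2a had at least 1 UMI in 140 cells (20.1%, exact 95% interval 17.2 to 23.3) and Tox in 111 cells (15.9%, 13.3 to 18.9). Sox4 was found in 24 cells (3.44%, 2.22 to 5.08) and Dntt in 18 (2.58%, 1.54 to 4.05). The intervals are Clopper-Pearson intervals and cover counting error only.

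Most cells that held a gene held very few of its transcripts. A single UMI was the whole count in 9 of the 18 Dntt cells, 83 of the 140 Itm2a cells, 63 of the 111 Tox cells and 11 of the 24 Sox4 cells. The highest counts were 6 Dntt UMIs in a Low cell of plate 3, 9 Itm2a UMIs in a Low cell of plate 1, 7 Tox UMIs in a High cell of plate 2 and 8 Sox4 UMIs in a Middle cell of plate 3. The top cell held 18.2% of the 33 Dntt UMIs and 14.3% of the 56 Sox4 UMIs, but 3.40% of the 265 Itm2a UMIs and 3.52% of the 199 Tox UMIs. A cell counted as negative may thus hold a transcript that was not captured.

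**Figure D1:**
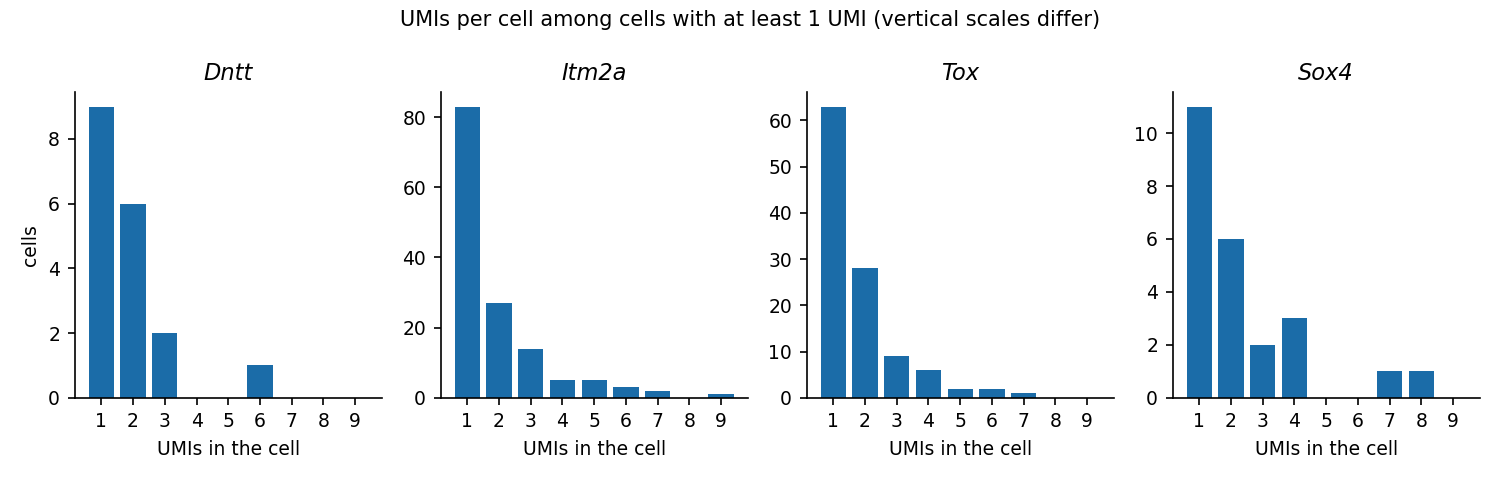
Number of cells (vertical axis, scales differ between panels) by UMIs of the gene in the cell (horizontal axis), for cells with at least 1 UMI of Dntt, Itm2a, Tox or Sox4. The bar at 1 UMI is the tallest in every panel, at 9, 83, 63 and 11 cells.

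The sort left no second cell type in which the genes should be absent, so the level of stray transcripts can be read only from genes of other lineages. Among B cell genes, Cd79b was found in 11 cells (1.58%), Cd79a in 8 (1.15%) and Ms4a1 in 4 (0.574%), and the erythroid gene Alas2 was found in 2 cells. The myeloid gene Itgam was found in 14 cells (2.01%) and the CD8 T cell gene Cd8b1 in 29 (4.16%). The interval of the overall Dntt share includes the shares of Cd79b and Itgam. That of the overall Sox4 share includes the share of Cd8b1. By class, Cd79b was found in 2.30%, 1.43% and 1.15% of the Low, Middle and High cells. Itgam was found in 2.30%, 2.01% and 1.72%, and Cd8b1 in 5.75%, 4.30% and 2.30%. Dntt shares at or under these levels cannot be told from stray transcripts. The rates differ between genes, so they set no exact floor for Dntt or Sox4.

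Between plates the 4 genes did not vary together. Itm2a was found in 19.8%, 23.9% and 17.9% of the cells of plates 1, 2 and 3, and Dntt in 2.91%, 3.48% and 1.85%. Tox was found in 8.72% of plate 1 cells (exact 95% interval 4.96 to 14.0), 21.9% of plate 2 cells (16.4 to 28.3) and 16.0% of plate 3 cells (12.2 to 20.5), so the interval of plate 1 lay below that of plate 2. Sox4 was found in 2.33%, 2.99% and 4.32%, with overlapping intervals. Plate 2 was also the deepest. At 2000 UMIs a cell, which 577 cells reached, the share expected over all random draws was 6.18%, 12.0% and 9.48% for Tox and 14.4%, 12.2% and 11.3% for Itm2a in plates 1, 2 and 3. Each plate is 1 library, so a difference between plates has no replicate check.

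Most Dntt cells had little surface CD5. A Dntt UMI was found in 13 of 174 Low cells (7.47%, exact 95% interval 4.04 to 12.4), in 4 of 349 Middle cells (1.15%, 0.313 to 2.91) and in 1 of 174 High cells (0.575%, 0.0145 to 3.16). In High cells the count was 0 of 49, 1 of 55 and 0 of 70 in plates 1, 2 and 3, against 4 of 48, 4 of 46 and 5 of 80 in Low cells. The 2 counts of 0 allow shares of up to 6.12% and 4.29%. The High and Low shares of the plates did not overlap. With CD5 as deposited, the pooled Middle and High shares were no higher than those of Cd79b. The Low share was higher than that of Cd79b, but its interval includes the 5.75% of Low cells with Cd8b1. Cd8a was found in 1.15% of Low cells, below that interval. High minus Low came to -8.33, -6.88 and -6.25 percentage points, a mean of -7.15 ± 1.07 (SD over n = 3 plates), lower in High cells in 3 of 3 plates (two-sided exact sign-flip permutation p = 0.25, the smallest that 3 plates allow). Without plate 2 the mean was -7.29 points.

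The level of Dntt showed the same order. In CPM, the UMIs of a gene relative to all gene UMIs of the class in its plate, Dntt stood at 29.0, 27.9 and 30.3 in Low cells, at 6.22, 6.95 and 2.68 in Middle cells and at 0, 3.48 and 0 in High cells of plates 1, 2 and 3. With CD5 as deposited, the Low values lay close together and above every other value. Those of the Middle class (5.28 ± 2.28) and the High class (1.16 ± 2.01, SD, n = 3 each) overlapped. Summed over plates, 1 UMI in High cells stood against 24 in Low cells, a ratio of 0.0438 with a 95% counting interval of 0.00106 to 0.268. This interval treats each UMI as independent. The 24 UMIs came from 13 cells, and 1 of these held 6, so the interval is too narrow for cells. With CD5 ranked within each plate and cut into 4 bins, the lowest bin held 5 of 8 Dntt UMIs in plate 1, 7 of 12 in plate 2 and 11 of 13 in plate 3.

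The same pattern stood in the CD5 values of single cells. The 18 Dntt cells had a median CD5 fluorescence of 17754.5 units (range 4026 to 79186), against 45486 in the 679 cells without a Dntt UMI. In plates 1, 2 and 3 the medians were 13247, 23202 and 7786.5 units with Dntt, against 43191, 51931.5 and 45141.5 without. The difference of medians on the log2 scale was -1.80 ± 0.69 (SD, n = 3 plates), lower with Dntt in 3 of 3 plates (two-sided exact sign-flip permutation p = 0.25, the smallest possible). Depth did not run in 1 direction with this. Dntt cells had median totals of 8602, 5554 and 3638 UMIs in plates 1, 2 and 3, against 3746, 5449 and 3952 in cells without it. With the plate 2 cells given the CD5 value of the next well, 0 of 165 High, 6 of 333 Middle (1.80%) and 12 of 168 Low cells held Dntt. In plate 2 itself these next-well values put Dntt in 4 of 84 Middle cells (8 UMIs) and 3 of 40 Low cells (4 UMIs). The gap between Low and Middle cells in plate 2 thus depends on which CD5 values are used.

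Dntt was too sparse for the test across genes as it was set up. The filter on low counts removed both Dntt and Sox4 from the fits of the CD5 classes. Without that filter, edgeR's quasi-likelihood test gave Dntt a log2 fold change of -4.26 (SE 1.22) for High minus Low, with a Benjamini-Hochberg adjusted p of 0.233, rank 27 of 13959 genes. The slope per log2 unit of CD5 was -1.50 (SE 0.41, edgeR adjusted p = 0.248, rank 13). Neither passed over all genes, where 0.115% of genes passed for High minus Low and 0.0716% for the slope.

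**Figure D2:**
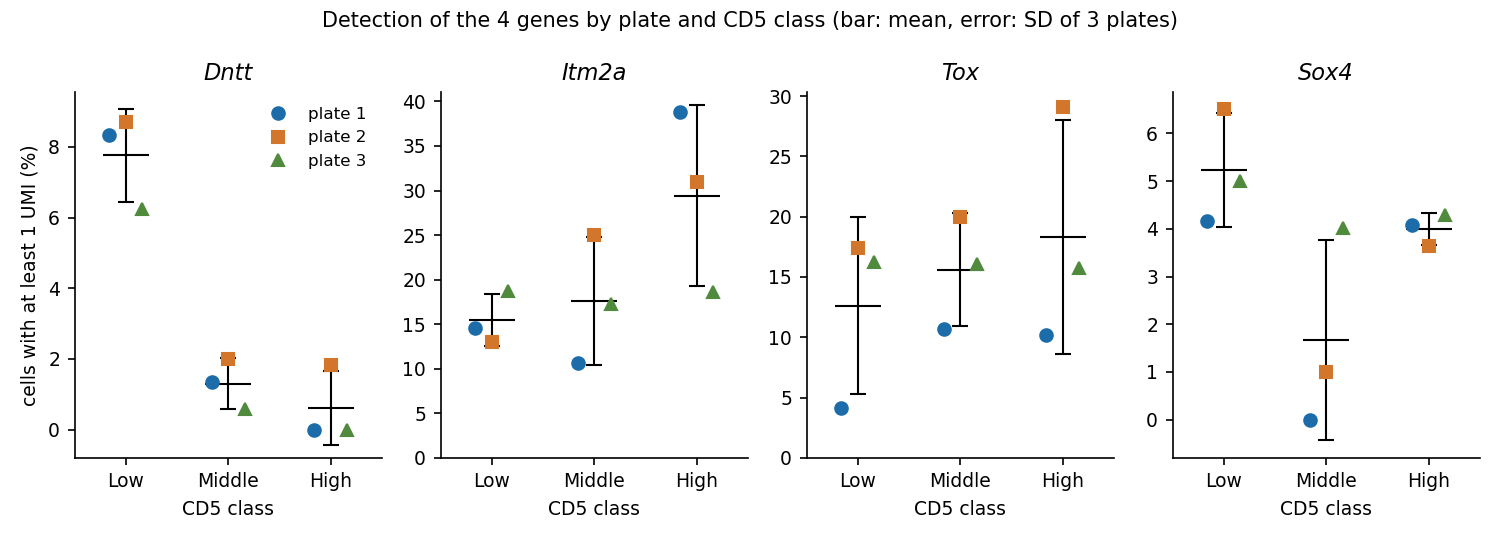
Percentage of cells with at least 1 UMI (vertical axis, scales differ) of Dntt, Itm2a, Tox and Sox4 by CD5 class (horizontal axis), with 1 marker for each plate, the mean of the 3 plates as a bar and their SD as the error. For Dntt the 3 Low values (6.25% to 8.70%) stand above all Middle and High values, while for the other genes the classes overlap.

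For Itm2a and Tox the High minus Low values were positive, with large spread between plates and no passing test. The share with Itm2a was 16.1% for the Low class, 18.1% for the Middle class and 28.2% for the High class. By plate the shares were 38.8%, 30.9% and 18.6% in High cells, against 14.6%, 13.0% and 18.8% in Low cells. High cells thus held Itm2a more often in plates 1 and 2, and in plate 3 the classes were level. High minus Low was 14.0 ± 12.6 percentage points (SD over n = 3 plates, two-sided exact sign-flip test, p = 0.5), 12.0 points without plate 2 and 10.1 with next-well CD5. Its level was 197, 97.4 and 74.4 CPM in High cells, against 111, 31.9 and 74.4 CPM in Low cells of plates 1, 2 and 3, with Middle cells at 37.3, 92.1 and 71.1 CPM.

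In the fit over 4813 genes, Itm2a had a log2 fold change of 0.72 (SE 0.39) for High minus Low, with an edgeR adjusted p of 0.853, and a slope of 0.30 (SE 0.16) per log2 unit of CD5 with an adjusted p of 0.998. Of the 2 members tested, Itm2a and Tox, 0 passed in either fit with edgeR and 0 with DESeq2, where 0.187% of all genes passed for High minus Low and 0.12% for the slope. At an unadjusted p under 0.05 the count was 298 genes for High minus Low, and neither Itm2a nor Tox was among them. Leaving out plate 2 gave Itm2a 0.51 and a slope of 0.14, next-well CD5 gave 0.54 and a slope of 0.17, and leaving out the Low cell of plate 1 with 9 UMIs gave 0.98 (adjusted p = 0.761, range over all alternatives 0.721 to 1).

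Depth differed between the classes and with detection. High cells of plate 1 had a median of 2527 UMIs, against 4200 in Low cells, and cells with Itm2a had a median of 5280 UMIs, against 3846 without. At 2000 UMIs a cell, averaged over all random draws, the expected Itm2a share was 26.7%, 13.4% and 12.6% in High cells, against 13.2%, 6.04% and 11.5% in Low cells of plates 1, 2 and 3. High was higher in 3 of 3 plates, by 7.29 ± 6.21 points (exact sign-flip permutation p = 0.25, the smallest possible). In the single draw the difference was 1.25 ± 14.4 points, higher in 2 of 3 plates, with plate 3 at -14.7. Averaged over the cells of this depth with all their UMIs, the level differed by 22.2 ± 46.2 CPM. It was higher in High cells in 2 of 3 plates, with plate 3 at -29.9 CPM. A single random draw of this depth moved the fitted Itm2a value between -0.52 and 0.51 over 5 draws.

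The share with Tox was 13.2% for the Low class, 16.0% for the Middle class and 18.4% for the High class. By plate it was found in 10.2%, 29.1% and 15.7% of High cells, against 4.17%, 17.4% and 16.3% of Low cells, so plate 3 was again level and the classes overlapped. Averaged over all draws of 2000 UMIs, High minus Low was 4.01 ± 2.89 points, higher in 3 of 3 plates. High minus Low was 5.73 ± 6.12 percentage points (SD over n = 3 plates, two-sided exact sign-flip test, p = 0.5), 2.75 points without plate 2 and 7.09 with next-well CD5. Its level was 45.5, 108 and 57.5 CPM in High cells, against 14.5, 59.8 and 52.4 CPM in Low cells, higher in 3 of 3 plates (exact sign-flip test, p = 0.25, the smallest possible). The log2 fold change was 0.71 (SE 0.42, edgeR adjusted p = 0.88), and the slope 0.27 (SE 0.16, adjusted p = 0.998). Neither value passed.

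For Sox4 the Middle class held the smallest share of positive cells. It was found in 9 of 174 Low cells (5.17%), 8 of 349 Middle cells (2.29%) and 7 of 174 High cells (4.02%). By plate the shares were 4.08%, 3.64% and 4.29% in High cells, against 4.17%, 6.52% and 5.00% in Low cells. High minus Low was -1.23 ± 1.47 points (SD over n = 3 plates, lower in 3 of 3, two-sided exact sign-flip test, p = 0.25, the smallest possible), without plate 2 it was -0.40, and with next-well CD5 it was 0.35. Its level was 24.2, 19.9 and 27.6 CPM in Low cells, 0, 12.2 and 22.8 CPM in Middle cells and 10.1, 17.4 and 16.9 CPM in High cells. The High and Low levels did not overlap, lower in High in 3 of 3 plates (exact sign-flip test, p = 0.25, the smallest possible). They rest on 12 UMIs in High and 20 in Low cells. Plate 2 gave 5 UMIs in each of these classes, and with next-well CD5 it gave 3 in High and 1 in Low cells. Without the filter its log2 fold change was -0.71 (SE 0.76, edgeR adjusted p = 1).

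**Figure D3:**
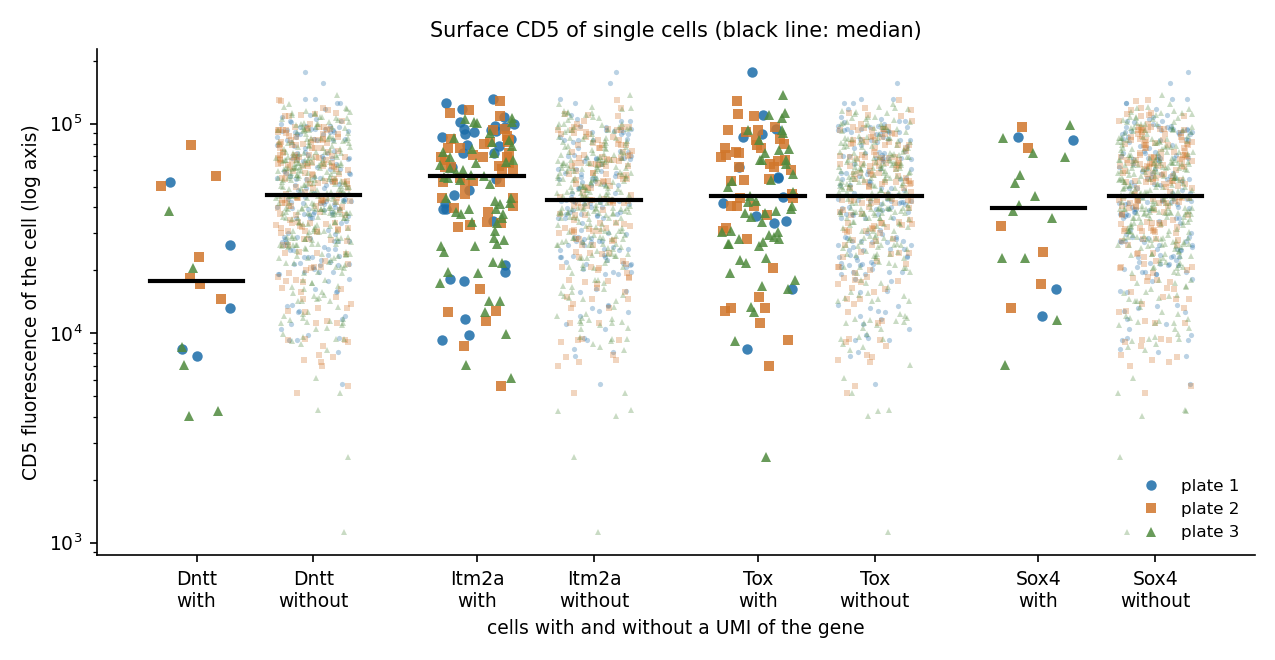
CD5 fluorescence of single cells (vertical log axis, cytometer units) with and without a UMI of each gene (horizontal axis), with markers by plate and the median as a black line. The median is 17754.5 with Dntt, against 45486 without, whereas for Itm2a (56041.5 against 43191), Tox (45073 against 45141.5) and Sox4 (39441 against 45348) the clouds cover the same range.

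For the other 3 genes the plates did not share a direction in the surface CD5 of single cells. Cells with Itm2a had a median of 56041.5 units, against 43191 without it (log2 difference by plate 0.44 ± 0.46, SD over n = 3 plates, higher in 2 of 3). Cells with Tox had 45073 units, against 45141.5 (0.13 ± 0.36, higher in 2 of 3). Cells with Sox4 had 39441 units, against 45348 (-0.24 ± 0.56, higher in 1 of 3). The two-sided exact sign-flip permutation p was 0.5 for Itm2a, 0.5 for Tox and 0.75 for Sox4.

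Most cells with one of the 4 genes held none of the other 3. Of the 697 cells, 449 held none of them, 207 held 1, 37 held 2, 4 held 3 and 0 held all 4. If each gene were spread over the cells of a plate without regard to the others, the products of the shares would give 441, 220, 33.9, 1.54 and 0.0204 cells. A gene was the only member found in 13 of its 18 cells for Dntt (72.2%), 108 of 140 for Itm2a (77.1%), 73 of 111 for Tox (65.8%) and 13 of 24 for Sox4 (54.2%). These shares depend on how often the other 3 were found, and no number from the products was worked out for them.

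Itm2a and Tox gave the largest number of cells with both. They met in 30 cells, which is 21.4% of the Itm2a cells and 27.0% of the Tox cells, against 22.8 from the products of the shares. By plate the count was 5, 16 and 9 cells, against 2.97, 10.5 and 9.31, so plate 3 held no excess. Cells with Tox were deeper than cells without it, with medians of 5785 and 3845 UMIs. At 2000 UMIs a cell a single random draw gave 5 cells with both, against 6.44 from the products, and the mean over all draws was 7.19 cells, against 6.67.

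Dntt shared few cells with any of the other genes, and the products of the shares also give few. Dntt and Itm2a met in 1 cell, against 3.73 from the products of the shares, and Dntt and Tox met in 3 cells, against 2.93. At 2000 UMIs the mean over all draws was 0.828 cells for Dntt with Itm2a, against 1.33, and 0.385 cells for Dntt with Tox, against 1.03, and the single draw gave 1 cell for either pair, against 1.22 and 0.885. Dntt and Sox4 met in 3 cells, against 0.584, with 0, 1 and 2 cells in plates 1, 2 and 3. At 2000 UMIs the mean over all draws was 1.33 cells with Dntt and Sox4, against 0.263, and 1.28 of it came from plate 3, while the single draw gave 0 cells. No test was made on counts this small.

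Tox and Sox4 met in 8 cells, against 3.91 from the products, and the count lay above the product in each plate (1, 3 and 4 cells, against 0.349, 1.31 and 2.25). At 2000 UMIs the mean over all draws was 2.92 cells, against 1.36, and the single draw gave 1 cell, against 1.33. Itm2a and Sox4 met in 4 cells, against 4.73, and at 2000 UMIs in 2.26 cells over all draws, against 1.72, and in 0 cells of the single draw, against 1.68. Over the thinned cells of a plate, Spearman's rho between any 2 members lay between -0.0624 and 0.0842, as a description over 128, 177 and 272 cells that share depth but in which most values are 0.

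**Figure D4:**
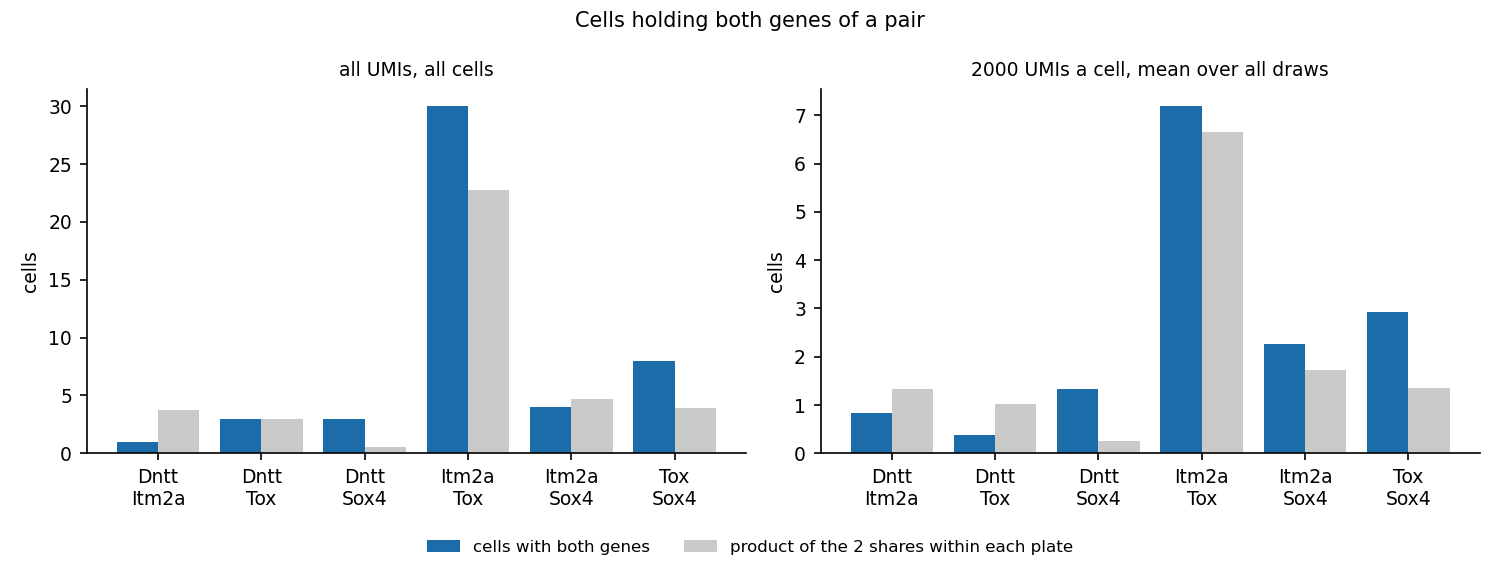
Cells that hold both genes of a pair (blue) beside the number from the product of the 2 shares within each plate (grey), with all UMIs on the left and at 2000 UMIs a cell, averaged over all draws, on the right (vertical axes: cells, scales differ). Itm2a and Tox reach 30 cells against 22.8 with all UMIs, and 7.19 against 6.67 at equal depth.

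The 4 cells with 3 members were of different kinds. A Low cell of plate 3 held 2 Dntt, 1 Itm2a and 1 Sox4 UMIs, and it also held a UMI of Cd24a, a surface marker that thymocytes lose as they mature. A Middle cell of the same plate held 2 Dntt, 2 Tox and 8 Sox4 UMIs, the highest Sox4 count of all cells. The other 2 were High cells of plates 2 and 3 with Itm2a, Tox and Sox4, and the one in plate 3 held a Foxp3 UMI.

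A transcript of any of 13 thymocyte genes was found in 72.2% of the 18 Dntt cells, against 42.9% of the 679 others. Their summed level was 83.5, 268 and 459 CPM in Dntt cells of plates 1, 2 and 3, against 156, 172 and 201 CPM in the others, so it was lower with Dntt in plate 1 and higher in plates 2 and 3. Dntt cells were also deeper, with a median of 5234 UMIs, against 4209. The most frequent genes of the list over all cells include Rmnd5a (136 cells), Themis (81) and Cd1d1 (45), and their overlap with Dntt was not counted. The genes of the list that were counted singly were each found in few Dntt cells. Cd8b1 was found in 2 of them, against 0.721 from the products of the shares, and Cd8a in 0, against 0.194. Rag2, a subunit of the recombinase that cuts antigen receptor genes, was found in 17 cells and in 0 of the 18 Dntt cells, where the products of the shares give 0.434. Rag1 has no row in the table used here. Ccr9, a chemokine receptor of thymocytes and gut-homing cells, was found in 51 cells, of which 1 held Dntt (1.27 from the products) and 13 held Itm2a (10.1). Cd24a was found in 10 cells, of which 1 held Dntt (0.218 from the products), 4 held Itm2a (1.91) and 0 held Tox (1.72). Along CD5, the Low, Middle and High shares were 1.72%, 2.58% and 2.87% for Rag2 and 8.62%, 7.16% and 6.32% for Ccr9.

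Genes that are known to be high or low in recent thymic emigrants gave no common picture along CD5. Of 12 emigrant-high genes in the table, which include the 4 members, 5 were tested for High minus Low and 0 passed. Itm2a (0.72) and Tox (0.71) were among the 5, with Satb1 at 0.09 (SE 0.12) and Tcf7 at -0.10 (SE 0.19). The median, with these members counted, was 0.09, against 0.00 over all tested genes. Of 13 emigrant-low genes in the table, 12 were tested and 0 passed, with a median of 0.00. Among those of smallest p were the survival gene Bcl2 (0.72, SE 0.19, edgeR adjusted p = 0.139), Ly6a (-0.84, SE 0.30, adjusted p = 0.656) and Ly6c1 (-0.94, SE 0.38, adjusted p = 0.769). Ly6a and Ly6c1 encode surface proteins that rise as T cells mature, and the Low, Middle and High shares for Ly6c1 were 35.1%, 20.9% and 19.5%. Of 12 genes of V(D)J end joining in the table, the partners of Dntt in receptor assembly, 4 were tested and 0 passed, with Hmgb2 at 0.56 (SE 0.34), Prkdc at -0.65 (SE 0.44), 3 of 4 positive and a median of 0.20. Of 13 tested positive selection genes, 1 rose, Cd5 itself (1.70, SE 0.30, edgeR adjusted p = 0.00213), where 0.187% of all genes passed. That list also holds Itm2a and Tox. Of the thymocyte (2), TOX and SOX relative (3), naive T cell (10), memory (2), innate-like (3), myeloid (2) and cycling (3) genes tested, 0 passed, and none of the CD8 T cell, B cell and erythroid genes had counts enough to be tested.

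The genes that passed along CD5 were few. For High minus Low, Kcnq1ot1, A630089N07Rik, Cd5, Gm17821, Vmn2r55, A130077B15Rik, Grk4 and Folr4 were higher and Fam78a was lower, and the lower values of Pvr, Apc, Wbp11 and Glrx did not pass. For the slope 6 genes passed, all higher, and Folr4 and Grk4 were not among them. The slope of Fam78a was -0.34 (SE 0.09, edgeR adjusted p = 0.267). Of 4 tested regulatory T cell genes, 1 rose, Folr4 (folate receptor 4, also named Izumo1r; 1.16, SE 0.26, edgeR adjusted p = 0.0246), 0 fell and all 4 were positive, where 0.187% of all genes passed and 50.4% were positive, with a median of 1.003 and Foxp3 at 0.84 (SE 0.68). Of 7 tested anergy and follicular helper genes, 1 rose, which was again Folr4, and the median was 0.74. For the slope, 0 of 4 tested regulatory T cell genes passed and 3 were positive. Of 7 tested anergy and follicular helper genes 0 passed and 6 were positive. Over all genes 0.12% passed for the slope and 49.6% were positive. Without the 56 Foxp3 cells, the values were 0.59 (SE 0.43) for Itm2a and 0.76 (SE 0.46) for Tox, and neither passed. A Foxp3 UMI was found in 13 of the 140 Itm2a cells (10.5 from the products of the shares) and 13 of the 111 Tox cells (9.45). It was found in 2 of the 24 Sox4 cells (2.31) and 0 of the 18 Dntt cells (1.17). Summed over the 6 regulatory T cell genes, Dntt cells stood at 111, 67.0 and 41.7 CPM in plates 1, 2 and 3, against 341, 332 and 259 CPM in cells without Dntt. Itm2a cells stood at 514, 317 and 351 CPM, against 267, 323 and 229 CPM in cells without Itm2a, and Tox cells at 986, 267 and 366 CPM, against 237, 341 and 228 CPM in cells without Tox. The part of these genes in the values along CD5 was not tested beyond the fit without Foxp3 cells.

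What else the cells shared was asked by comparing cells with and without a UMI of each gene after thinning to 2000 UMIs, with sums over the cells of a plate. For Itm2a, 70 cells were set against 507, and 0 of 2178 genes passed (background 0%, 74 genes at an unadjusted p under 0.05, 0 with DESeq2). The smallest p values belonged to Elavl1 (-2.48, SE 0.64), an RNA-binding protein, and to Stk17b (0.72, SE 0.20), a kinase of T cells, each with an edgeR adjusted p of 0.758, and to Igfbp4 (-0.87, SE 0.25), which is known from naive T cells. Higher values that did not pass also belonged to Nucks1 (1.36), Camk4 (1.14), Trim21 (1.42) and Wbp1 (1.98), and lower ones to Grk4 (-0.48) and R3hdm4 (-2.20).

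For Tox, 53 cells were set against 524, and 0 of 2337 genes passed (background 0%, 104 genes at an unadjusted p under 0.05, 0 with DESeq2). The smallest p values belonged to Gm17821 (-0.65, SE 0.14, edgeR adjusted p = 0.10) and the imprinted noncoding RNA Kcnq1ot1 (-0.55, SE 0.13, adjusted p = 0.208). Among genes that were higher without passing were the transcription factor Myc (1.80, SE 0.57), Lpcat3 (1.81), Ptp4a2 (0.69), Usp16 (1.74) and Ppp1r2 (1.80), and among those that were lower Grk4 (-0.63), Foxo1 (-0.82), a transcription factor of naive T cells, and Rpl23 (-0.44). Itm2a itself stood at -0.44 (SE 0.70) in cells with Tox, and this value turned to 0.28 and 0.52 in 2 of the 4 other random draws and to 0.55 with all UMIs.

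For Dntt only 10 thinned cells, 3, 3 and 4 by plate, could be set against 567. The 4 other random draws could not be fitted, since a plate held fewer than 3 positive cells, so these values come from a single draw. Of 1924 genes, 38 passed (1.98%), of which 37 were lower, but the median of all genes lay at -0.68, and with DESeq2 size factors 3 passed and by the DESeq2 Wald test 1. The 3 genes that passed under both scalings of edgeR were Slc25a23, Kcnq1ot1 and Mir5109. Slc25a23, a mitochondrial carrier, had 10, 2 and 3 UMIs in the Dntt cells of plates 1, 2 and 3, against 9, 21 and 20 in all other cells (log2 3.31, SE 0.74, edgeR adjusted p = 0.00212). It did not pass without plate 1 (2.13, adjusted p = 0.726), without plate 3 (adjusted p = 0.294) or with all UMIs (adjusted p = 0.177). Kcnq1ot1 stood at -1.40 (SE 0.26) and Mir5109 at -2.19 (SE 0.39), and with all UMIs Mir5109 stood at -0.52 and did not pass. The higher values of Alkbh1 (2.32), Pvr (2.42), Traf3ip2 (2.33) and Phf20 (2.01) did not pass. The other genes of smallest p that the naming rule gives were lower: mtNd1, Gm17821, Grk4, Ly6e, Vmn2r55, Rps19, mtNd4, Wdr92, Rps14 and H2-K1.

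For Sox4 the comparison could not be fitted in the first random draw at 2000 UMIs, since plate 1 held 2 positive cells and the minimum was 3. It could be fitted in 1 of the 4 other draws, where 3 of 2025 genes passed, all lower, with the median of all genes at -0.50, and without plate 1, where 0 of 3063 passed (138 at an unadjusted p under 0.05). With all UMIs, 24 cells were set against 673 and 0 of 5003 genes passed with edgeR (248 at an unadjusted p under 0.05), with Tox at 1.17 (SE 0.83) and Itm2a at -0.16 (SE 0.86). Because Itm2a lies on the X chromosome and both sexes were pooled, cells with and without a UMI of Xist, the noncoding RNA of the inactive X in female cells, were compared too. A Xist UMI was found in 23.1% of the thinned cells, against 36.2% of all cells with all UMIs. The cells without Xist thus include female cells, and the split does not separate the sexes. Itm2a stood at -0.08 (SE 0.45) and Tox at -0.33 (SE 0.55) in Xist cells, with edgeR adjusted p values of 0.997 for both, while 0.0379% of 2641 genes passed. The Itm2a value was positive in all 4 other random draws, between 0.19 and 0.63.

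No gene followed a member closely from cell to cell. Among 4540 genes found in at least 5% of thinned cells, the highest mean Spearman's rho over the 3 plates was 0.22 for Dntt (Alkbh1), 0.18 for Itm2a (Icam2), 0.22 for Tox (Diap1) and 0.22 for Sox4 (Mboat1). The next were Slc25a23, Hif1a, Anxa5 and Plekhg2 for Dntt, Itfg1, Larp4, Ktn1 and Psenen for Itm2a, Senp2, Usp16, Dhcr7 and Sdhaf2 for Tox, and Thoc5, Bbx, L1cam and Kdm5b for Sox4. In counts this sparse such values are descriptions only.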

How the data were processed

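The authors deposited expected counts of 14355 genes and spike-ins in 697 cells, from libraries with UMIs of 6 bases per the labels' protocols. Of the values above 0, 8.557% are not whole and lie where a correction for UMI collisions would place them; no label states that step. Reads were mapped with BWA to mm10, per the submitters' processing notes; versions and filters are not given in the sources used here. CD5 is a deposited fluorescence signal per cell, and the authors' deposited classes were used. A cell was positive with at least 1 UMI. Spike-ins entered no value.

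Counts were summed over the cells of a plate and class, or over 4 CD5 bins a plate, rounded, and tested with edgeR 4.0.16 in R 4.3.3 (quasi-likelihood, TMM, filterByExpr, two-sided, Benjamini-Hochberg 0.05), with the plate as a block because its sums share a library; deviations from class means over 391 genes correlated within plates at 0.402 to 0.714. Cells with and without a UMI were compared after thinning to 2000 UMIs without replacement, given at least 3 positive cells in every plate. Shares were compared by exact sign-flip tests over 3 plates. DESeq2 1.42.0 was an alternative, as were other filters, depths, random draws and left-out plates; averages over all draws, other draws of the CD5 fits and fits of CD5 without Foxp3 cells were chosen after seeing the data. The scripts were tested on simulated data. Python 3.11.15, numpy 2.4.6, pandas 2.3.3, scipy 1.17.1 and matplotlib 3.10.9 served for the rest. Doublets were not called. Limits for a count of 0 use 3 counts, at 95%; intervals and floors cover counting error only, and the floor limits cells with a UMI, not cells that express the gene.

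The members and gene lists were chosen with earlier results of these data known. In each comparison the rule names genes that passed, at most 12 per direction, or those of smallest p up to 5, said not to pass; from lists up to 4 of smallest p; and the 5 most alike by mean rho. No source used here gives whether counting used strand. Some genes that the rule gives are not reported here.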

Additional observations from a re-analysis of the deposited data

How the results depend on the processing

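All fits across genes had a replicate block for the plate, whose sums share a library; with no replicate block, 0 genes passed for High minus Low, 0 for the CD5 slope and 0 for Xist. For High minus Low, in place of 9, the DESeq2 Wald test called 0 genes, no filter 16, 2000 UMIs a cell 3, another draw 4, next-well CD5 in plate 2 24, and leaving out the top Kcnq1ot1 cell 1; leaving out a plate gave 0 to 20. For the slope, in place of 6, these were 3 for the Wald test, 10 with no filter, 10 in another draw, 17 with next-well CD5, 1 without the top Kcnq1ot1 cell and 0 to 14 without a plate. The largest of both ranges was without plate 2. Over these settings the Itm2a value for High minus Low ran from -0.52 to 1.06, and it reversed only in 1 draw at 2000 UMIs (-0.52, slope -0.16), while Tox was positive in each of the 15 alternative fits that tested it, which include 1 of the 5 draws at 2000 UMIs, and neither gene passed. The Sox4 share difference reversed with next-well CD5, to 0.35 points. The other 3 genes kept their direction in the share of cells under every setting run, with Dntt between -7.61 and -5.31 points.

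For cells with Dntt, in place of 38, DESeq2 size factors gave 3 genes, the Wald test 1, no filter 140, no thinning 9 and leaving out a plate 13 to 41. For Itm2a, in place of 0, no filter gave 8, no thinning 3, another draw 1 and leaving out a plate 0 to 1. For Tox, in place of 0, no thinning gave 5, another draw 1, leaving out Foxp3 cells 4 and leaving out a plate 0 to 1. For Xist, in place of 1, the Wald test gave 0, no filter 5, 1000 UMIs 0, no thinning 6, the 4 other draws 0, 0, 4 and 5, no Foxp3 cells 0 and leaving out a plate 0 to 6. Itm2a in Tox cells reversed at 4000 UMIs (0.71), with no thinning (0.55) and in 2 draws (0.28 and 0.52). In Xist cells Itm2a reversed at 1000 UMIs (0.52), 4000 UMIs (0.25), with no thinning (0.14), in 4 draws (0.56, 0.52, 0.63 and 0.19) and among plates left out (-0.41 to 0.19), and Tox reversed at 4000 UMIs (0.35) and in 1 draw (0.0052). The cause was not tested for any of these changes.

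Cells with both genes, minus the number from the products of the shares, moved as follows, in percentage points of cells, against the single draw at 2000 UMIs. Dntt with Itm2a, at -0.10, moved to -0.48 with no thinning and -0.49 at 4000 UMIs. Dntt with Tox ran from -0.13 to 0.12 over the 12 alternatives, so its sign was not stable. Dntt with Sox4, at -0.04, moved to 0.29 with no thinning, -0.014 at 1000 UMIs, 0.15 at 4000 UMIs, 0.20, 0.087, 0.19 and 0.086 in other draws, 0.0798 at a minimum of 2 UMIs and 0.12 over all draws. Itm2a with Tox moved to 1.27 with no thinning, 0.074 at 1000 UMIs, 1.27 at 4000 UMIs, 0.415 and 0.34 in 2 draws, 0.61 at a minimum of 2 UMIs and 0.17 over all draws. Itm2a with Sox4 moved to -0.17, -0.098 and 0.16 under the same 3 depths, to 0.24, -0.093, 0.23 and 0.23 in other draws, 0.23 at a minimum of 2 UMIs and 0.0101 over all draws. Tox with Sox4 moved to 0.59 with no thinning, 0.68 at 4000 UMIs, 0.36, 0.44 and 0.36 in 3 draws, 0.34 at a minimum of 2 UMIs and 0.32 over all draws. Dntt at 1000 and 4000 UMIs and in the 4 other draws, and Sox4 at 1000 and 4000 UMIs and in 4 of 5 draws at 2000, were not run because a plate held fewer than 3 positive cells. At a median of 4244 UMIs a cell, a gene found by 1 UMI in most of its cells is missed in others, and how many could not be measured.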

Other observations

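Kcnq1ot1 was lower in the positive cells of 2 splits. It stood at -0.65 (SE 0.12) in Xist cells, the single gene of 2641 that passed (edgeR adjusted p = 0.00606; 0 with DESeq2). In Dntt cells it stood at -1.40 (SE 0.26, edgeR adjusted p = 5.56e-05), where the median of all genes was -0.68; with DESeq2 size factors it was -1.04 (adjusted p = 0.0436), and by the DESeq2 Wald test the adjusted p was 0.973. In Tox cells its value of -0.55 (SE 0.13, edgeR adjusted p = 0.208) did not pass. These splits are made of the same cells and are not independent of each other. Along CD5, Kcnq1ot1 rose, at 0.61 (SE 0.10, edgeR adjusted p = 0.000451), and without the cell of highest Kcnq1ot1 the count of genes that passed for High minus Low was 1 in place of 9.

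Cells with Cd8b1, the beta chain of the CD8 co-receptor, held Tox more often than the products of the shares give. Cd8b1 was found in 29 cells, of which 10 held Tox, against 5.09, and 3 held Sox4, against 1.08. This pair was chosen after its values were seen, depth was not matched, and no test was made.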
